A study of Caenorhabditis elegans with 31 samples.

Results

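Troponin is the calcium switch of striated muscle, and 10 of the 46904 genes in the deposited single-nucleus count matrices of adult Caenorhabditis elegans encode its subunits. The genes were taken by name: 4 for troponin I (tni-1, unc-27, tni-3 and tni-4), 4 for troponin T (mup-2, tnt-2, tnt-3 and tnt-4) and 2 for troponin C (pat-10 and tnc-2). All 10 had counts and all 10 passed the filter on low counts in every comparison below. The 31 libraries came from whole worms of strain JK560, which carries fog-1(q253), an allele with a block in sperm formation, so that every group had a germline but no embryos. The groups in the third generation (F3) were water (5 libraries), 0.05% ethanol (5) and 0.5% ethanol (3). The groups in the first generation (F1) were water (5), 0.05% ethanol (5) and 0.5% ethanol (3). Untreated worms labelled P0 (parental generation) gave 1 library of sorted nuclei and 4 of unsorted nuclei. They shared no batch with F1 or F3 libraries, and the labels used here do not make them the parents of those groups. The libraries fell into 5 labelled batches. Batch 1 held the sorted and 1 unsorted P0 library, batch 3 the other 3 P0 libraries, batch 2 both generations with water and 0.05% ethanol, batch 4 the F3 libraries of all 3 treatments and batch 5 the F1 libraries of all 3 treatments. The labels do not say whether replicates were separate cultures, so p-values measure the spread between these libraries, which may be technical.

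In muscle, troponin C binds calcium, troponin I holds the interaction of actin and myosin back until calcium arrives, and troponin T ties the complex to tropomyosin along the thin filament. The worm has several genes for each subunit. unc-27, tni-1, tni-3, mup-2 and pat-10 are known from body wall muscle, the muscle used for movement. tni-4, tnt-4 and tnc-2 are known from the pharynx, the feeding organ. Troponin also acts in the contractile sheath of the gonad, which squeezes oocytes out at ovulation.

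The matrices held 85180 nuclei, and 83012 were kept after 2168 likely doublets were removed. Depth ranged over libraries between 1218248 and 25500166 UMIs, which are counted RNA molecules, in 1116 to 4850 nuclei with medians of 606 to 2149.5 UMIs per nucleus. The 3 libraries with replicate number 2 in batch 5 were the shallowest. Libraries of a batch shared barcodes: 3824 nuclei (4.49%) carried a barcode also present in another library of their batch, with 0.967% to 15.9% per library, and results without those nuclei are given where they differ. Classes of nuclei were rebuilt from clusters made without the 10 troponin genes and are called "like" a cell type from marker lists that hold no troponin gene. They comprised 10141 body wall muscle-like nuclei (clusters 1 and 12), 3446 pharyngeal muscle-like nuclei (clusters 7 and 29), 1099 gonadal sheath-like nuclei (cluster 22) and 16637 germline-like nuclei, while 39613 nuclei stayed unnamed. The body wall muscle myosin gene unc-54 had 6662 CPM (counts per 1e6 UMIs) in body wall muscle-like nuclei, against 2409 CPM in all other nuclei. The pharyngeal myosin gene myo-2 had 1585 CPM in pharyngeal muscle-like nuclei and 104 CPM elsewhere, and the sheath gene lim-7 had 395 CPM in gonadal sheath-like nuclei and 7.52 CPM elsewhere. Body wall muscle RNA was thus counted in every class, and unc-54 still had 3740 CPM in pharyngeal muscle-like and 1902 CPM in gonadal sheath-like nuclei. The part of free RNA in these counts was not tested.

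The family made up 0.842% of all UMIs, with 0.225% in the lowest, 0.817% in the median and 1.51% in the highest library. pat-10 alone gave 44.2% of the family's UMIs, unc-27 gave 23%, tnt-2 gave 14.4% and mup-2 gave 10.3%. The other 6 genes gave between 0.824% (tnt-4) and 1.85% (tnt-3) each. Apart from these shares, levels of different genes were set beside each other per kb of annotated exon. This assumes that counts scale with exon length, which counts of molecules need not do. On that scale pat-10 had 3361 ± 1568 CPM per kb over whole libraries, unc-27 1905 ± 566, tnt-2 727 ± 255 and mup-2 522 ± 234 (SD, n = 31 libraries). The other 6 averaged between 29.5 CPM per kb for tnt-3 and 140 CPM per kb for tni-3. The low place of tnt-3 came with the longest gene model, 4917 exonic bases in 16 blocks, against 819 to 1513 bases for the other 9. Without the division tnt-3 averaged 145 CPM, the highest of these 6 genes.

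In the WBcel235 annotation, tni-1, unc-27, mup-2, tnt-2 and tnt-3 lie on the X chromosome, tni-3 and tnt-4 on V, tni-4 on IV, pat-10 on I and tnc-2 on II. 3 members overlap a protein gene on the opposite strand. All 950 exonic bases of tni-3 lie within the span of phy-3, 157 of the 819 bases of tnc-2 lie under clec-143, and 16 of the 821 bases of tni-4 lie under Y59E9AL.36. Whether the counting used strand is not given in the sources used here, so the counts of these 3 genes, above all tni-3, carry that uncertainty.

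Among the troponin I genes, unc-27 was highest in body wall muscle-like nuclei. It had 4346 ± 841 CPM there (SD, n = 31 libraries), 1969 ± 608 CPM in pharyngeal muscle-like nuclei, 853 ± 327 CPM in gonadal sheath-like nuclei (n = 30 each) and 427 ± 180 CPM in germline-like nuclei (n = 31). Body wall muscle-like exceeded pharyngeal muscle-like nuclei in 30 of 30 libraries. tni-4 ran the other way, with 43.1 ± 15.3 CPM in body wall muscle-like, 806 ± 358 in pharyngeal muscle-like and 330 ± 156 in gonadal sheath-like nuclei. In 30 of 30 libraries tni-4 was higher in pharyngeal muscle-like than in body wall muscle-like nuclei, and in 30 of 30 it was higher in gonadal sheath-like than in body wall muscle-like nuclei. tni-3 had 175 ± 69.4 CPM in body wall muscle-like, 365 ± 197 in pharyngeal muscle-like and 137 ± 68.3 in gonadal sheath-like nuclei. tni-1 had 121 ± 64.6 CPM in body wall muscle-like, 58.5 ± 33.8 in pharyngeal muscle-like and 145 ± 59.2 in gonadal sheath-like nuclei. The body wall and sheath values of tni-1 differed by less than the spread between libraries, and sheath exceeded body wall in 16 of 30 libraries.

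Among the troponin T genes, tnt-2 and mup-2 were highest in body wall muscle-like nuclei and tnt-4 in pharyngeal muscle-like nuclei. tnt-2 had 2554 ± 586 CPM in body wall muscle-like, 1372 ± 396 in pharyngeal muscle-like and 307 ± 192 in gonadal sheath-like nuclei. Its sheath level was near the 255 CPM of germline-like nuclei and exceeded it in 15 of 30 libraries. mup-2, named for mutants with misplaced muscle, had 1592 ± 581 CPM in body wall muscle-like, 797 ± 310 in pharyngeal muscle-like and 787 ± 371 in gonadal sheath-like nuclei. The last 2 classes did not differ beyond their spread for mup-2, and its sheath level exceeded the 202 CPM of germline-like nuclei in 29 of 30 libraries. tnt-4 had 11.4 ± 8.60 CPM in body wall muscle-like, 646 ± 427 in pharyngeal muscle-like, 5.31 ± 9.05 in gonadal sheath-like and 6.60 CPM in germline-like nuclei. tnt-3 had 266 ± 107 CPM in body wall muscle-like and 287 ± 94.3 in pharyngeal muscle-like nuclei, a difference within the spread, and 53.3 ± 66.2 CPM in gonadal sheath-like nuclei.

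The troponin C genes divided by class, with pat-10 highest in body wall muscle-like and tnc-2 in pharyngeal muscle-like nuclei. pat-10 had 6650 ± 2044 CPM in body wall muscle-like, 4346 ± 1675 in pharyngeal muscle-like, 1245 ± 613 in gonadal sheath-like and 799 CPM in germline-like nuclei. tnc-2 had 19.1 ± 10.1 CPM in body wall muscle-like, 670 ± 346 in pharyngeal muscle-like, 11.6 ± 14.4 in gonadal sheath-like and 9.23 CPM in germline-like nuclei. Non-muscle classes held the body wall members too. unc-27 had 2244 ± 696 CPM in neuron-like nuclei (n = 31) and 2128 ± 459 CPM in epidermis-like nuclei (n = 15), and pat-10 had 4136 ± 1813 and 4522 ± 1614 CPM in these classes. The pharyngeal muscle-like levels of unc-27 and pat-10 lay within the spread of those non-muscle levels, and the gonadal sheath-like levels lay below them.

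**Figure D1:**
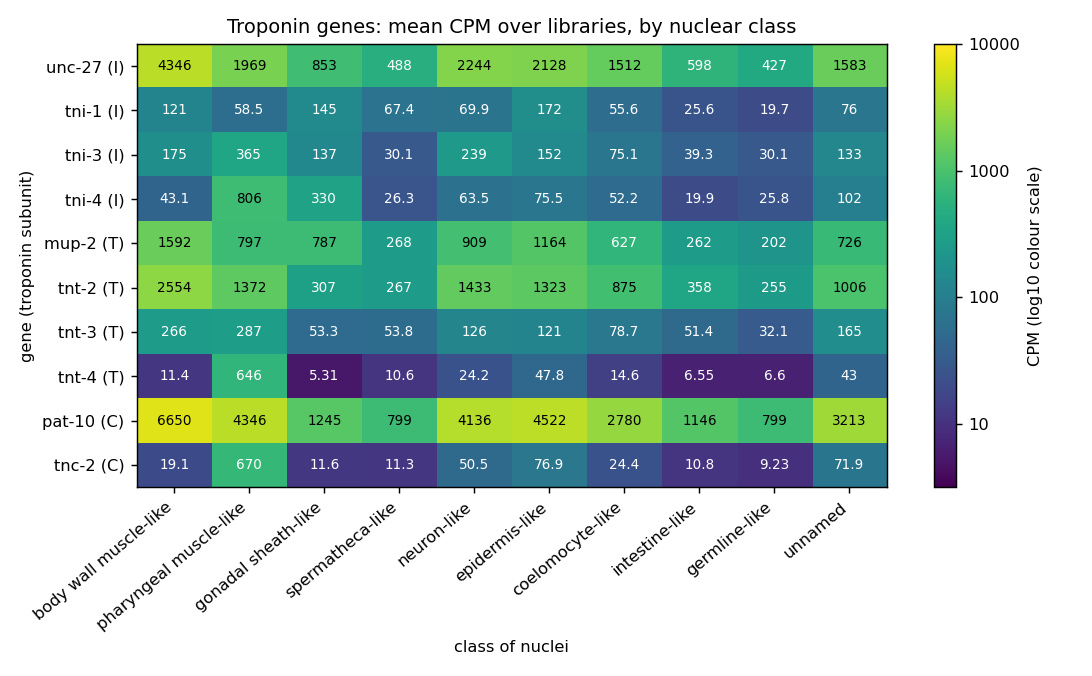
Mean CPM over libraries of each troponin gene (rows, with the subunit in brackets) in each class of nuclei (columns); colour is on a log10 scale, and levels are to be compared along a row. The row of unc-27 peaks at 4346 CPM in body wall muscle-like nuclei, and the rows of tni-4, tnt-4 and tnc-2 peak at 806, 646 and 670 CPM in pharyngeal muscle-like nuclei.

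Per kb of exon, unc-27 gave the largest share of troponin I and pat-10 the largest share of troponin C in all 3 muscle classes, while the shares of the other members differed between them. In body wall muscle-like nuclei, unc-27 gave 93.1 ± 1.90% of troponin I UMIs per kb and pat-10 gave 99.7 ± 0.12% of troponin C (SD over libraries). Troponin T there was divided between tnt-2, with 60.3 ± 5.48%, and mup-2, with 37.4 ± 5.57%. In pharyngeal muscle-like nuclei, unc-27 gave 60.3 ± 12.1% of troponin I, tni-4 gave 27.5 ± 9.70% and tni-3 gave 10.6%. Troponin T in that class came from tnt-2 (47.4 ± 8.81%), mup-2 (27.5 ± 4.46%) and tnt-4 (22 ± 10%), and troponin C from pat-10 (84.6 ± 6.0%) and tnc-2 (15.4 ± 6.0%). In gonadal sheath-like nuclei, mup-2 was the main troponin T gene with 69.0 ± 17.8%, and tnt-2 gave 28.6 ± 16.4%. Troponin I in the sheath-like class came from unc-27 (56.5 ± 12.1%), tni-4 (25.2 ± 9.81%), tni-1 (9.46%) and tni-3 (8.88%), and troponin C from pat-10 (98.9%). Neuron-like nuclei, which are not muscle, gave 86.3% for unc-27, 60.6% for tnt-2 and 98.5% for pat-10, and what part of such counts came from a class's own nuclei was not tested. Dividing by length assumes that counts scale with exon length. Without the division, only the share of tnt-3 moved beyond its spread, to 6.21% of troponin T in body wall muscle-like, 9.59% in pharyngeal muscle-like and 5.18% in gonadal sheath-like nuclei, against 1.99%, 3.08% and 1.79% per kb.

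The share of nuclei with at least 1 UMI was taken after each nucleus was thinned to 500 UMIs, which left out 74 shallower body wall muscle-like, 22 pharyngeal muscle-like, 3 gonadal sheath-like and 245 germline-like nuclei. pat-10 was seen in 81.2% of body wall muscle-like, 70.6% of pharyngeal muscle-like, 36.9% of gonadal sheath-like and 25.9% of germline-like nuclei. unc-27 was seen in 73%, 45.8%, 27.5% and 15.7% of these 4 classes in the same order. Classes that are not muscle were set beside these, and their shares differed widely. What part of their counts came from their own nuclei was not tested. pat-10 was seen in 62% of neuron-like and 70.6% of epidermis-like nuclei, and unc-27 in 44.5% and 46.1%. The pharyngeal muscle-like and gonadal sheath-like shares of these 2 genes stood above their germline-like shares. They did not stand clear of the epidermis-like shares, and the sheath shares lay below the neuron-like shares too. Median depths were 1862 UMIs in body wall muscle-like, 1032 UMIs in germline-like, 1132 UMIs in neuron-like and 1451 UMIs in epidermis-like nuclei. tnt-4 was seen in 0.725% of body wall muscle-like nuclei (exact 95% interval 0.569 to 0.911%), 21.6% of pharyngeal muscle-like nuclei, 0.274% of gonadal sheath-like nuclei (0.0565 to 0.798%) and 0.372% of germline-like nuclei (0.285 to 0.478%). tnt-4 was seen in 0.970% of neuron-like and 2.82% of epidermis-like nuclei. Its body wall share lay below both of these but above the germline-like share. Its sheath share also lay below both, with an interval that covered the germline-like share. tnc-2 was seen in 1.13%, 24.3%, 0.730% and 0.561% of the 4 classes, and in 2.38% of neuron-like and 3.53% of epidermis-like nuclei. The body wall and sheath shares of tnc-2 lay below the neuron-like and epidermis-like shares, and its body wall share lay above the germline-like share. The sheath and germline-like classes were not set apart for tnc-2, whose CPM was higher in sheath-like nuclei in 13 of 30 libraries. tni-4 was seen in 1.82% of body wall muscle-like, 28.9% of pharyngeal muscle-like, 13.6% of gonadal sheath-like (11.6 to 15.8%) and 1.24% of germline-like nuclei, and in 3.28% of neuron-like and 4.51% of epidermis-like nuclei. Its pharyngeal and sheath shares stood above all 3 non-muscle shares. Intervals cover counting error only. Without thinning, in body wall muscle-like, pharyngeal muscle-like, gonadal sheath-like and germline-like nuclei, pat-10 was seen in 93.5%, 86.3%, 67.4% and 44.3% of nuclei, unc-27 in 91.6%, 71.1%, 58.2% and 32.1%, tni-4 in 9.82%, 53.2%, 38.9% and 3.99%, tnt-4 in 3.21%, 42.5%, 1.91% and 1.08%, and tnc-2 in 5.13%, 47.3%, 3.37% and 1.57%.

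Each member was also counted per 100 unc-27 UMIs over the 30 clusters of at least 50 nuclei. The ratio moves with the unc-27 content of a cluster as well as with the member itself. tnt-2, mup-2 and pat-10 varied least. tnt-2 ranged between 30.3 in sheath cluster 22 and 74.6 UMIs per 100 unc-27 UMIs, with a median of 60.8. mup-2 ranged between 34.2 and 94.8, with its highest values in sheath cluster 22 and then in unnamed cluster 17 (86.2). pat-10 ranged between 103 in body wall cluster 12 and 244. The pharyngeal members varied far more: tni-4 between 0.778 in body wall cluster 12 and 71.4 in pharyngeal cluster 29, tnt-4 between 0.267 and 55.6, and tnc-2 between 0.445 and 39.7. The values of the 106 nuclei of cluster 29 rest on 63 unc-27 UMIs, and for tnc-2 the counting interval there (23.9 to 64.0) covered the 34.6 of cluster 7. In CPM, cluster 7 was higher than cluster 29 for tni-4 (849 and 451), tnt-4 (722 and 351) and tnc-2 (740 and 251). The lowest tnt-4 ratio, in germline-like cluster 28, is 1 UMI. tni-1 was highest in cluster 22, at 14.1 per 100 unc-27 UMIs, and then in spermatheca-like cluster 25, at 13.2. tni-3 was highest in pharyngeal cluster 7, at 19.8, and then in cluster 22, at 16.

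**Figure D2:**
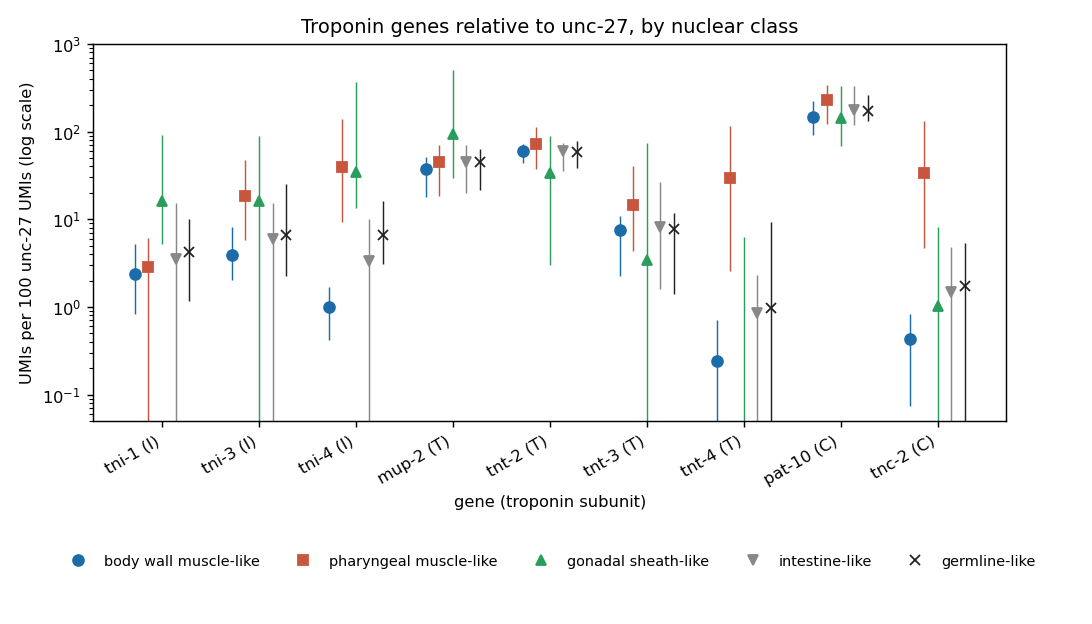
UMIs of each gene per 100 unc-27 UMIs (log scale) in 5 classes of nuclei; points are medians over libraries and lines run between the lowest and highest library. Lines that reach the lower edge include libraries at 0, and the sheath median of tnt-4 lies below the axis. tni-4, tnt-4 and tnc-2 separate pharyngeal muscle-like from body wall muscle-like nuclei, while tnt-2 keeps to a narrow band outside the gonadal sheath.

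tnt-3 divided the body wall muscle-like class. It had 1044 CPM in cluster 12 (2056 nuclei) and 160 CPM in cluster 1 (8085 nuclei), while unc-27 had 3530 CPM in cluster 12 and 4636 CPM in cluster 1. tnt-3 was also high in 2 clusters that could not be named, with 820 CPM in cluster 6, led by cdh-1, linc-72 and grh-1, and 512 CPM in cluster 13, led by scl-5 and phat-6 among others. In cluster 6, unc-27 had 653 CPM, so that tnt-3 reached 126 UMIs per 100 unc-27 UMIs there, against a median of 7.14 over clusters. In the small pharyngeal cluster 29 (106 nuclei) tnt-3 had 802 CPM, against 281 CPM in pharyngeal cluster 7 (3340 nuclei). Cluster 13 held pharyngeal members as well, with 604 CPM of tni-4, 292 CPM of tnt-4 and 598 CPM of tnc-2. Its leading marker lists were those of pharyngeal gland and pharyngeal muscle, too close to each other for a name. Unnamed cluster 17, whose leading genes include inx-8, a gap junction gene of the gonadal sheath list, had 282 CPM of tni-4 and 908 CPM of mup-2. These cluster levels are pooled over libraries and have no replicate error.

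**Figure D3:**
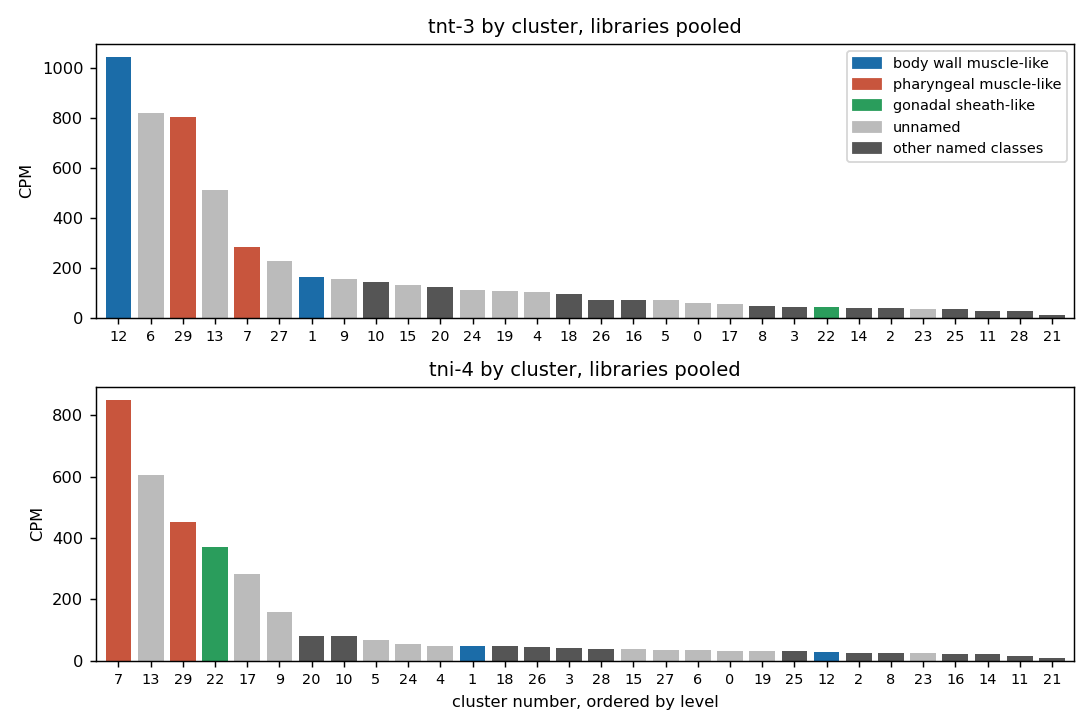
CPM of tnt-3 (top) and tni-4 (bottom) in the 30 clusters of at least 50 nuclei, libraries pooled, ordered by level and coloured by class. tnt-3 leads in body wall cluster 12 (1044 CPM), and tni-4 leads in pharyngeal cluster 7 (849 CPM) with sheath cluster 22 (370 CPM) in the fourth place.

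All other genes, family members included, were ranked for each member by how closely their levels followed it over the 30 clusters, with Pearson r of log2(CPM + 1) among 11813 genes; clusters share libraries and depth, and the values are a description. unc-27 was followed most closely by clik-1 (r = 0.994), unc-15, the paramyosin gene (0.991), and unc-54 (0.990). pat-10 also had clik-1 first (0.993), and tnt-2 had twk-18 (0.990), a potassium channel gene of body wall muscle. mup-2 was closest to C29F5.1 (0.992) and tni-3 to tsp-8 (0.950). tni-1 was closest to F21C10.7 (0.951), followed by ost-1 (0.949), which encodes osteonectin, and the myosin gene myo-3 (0.947). tni-4 was closest to oig-3 (0.963) and the pharyngeal myosin gene myo-5 (0.959). tnt-4 and tnc-2 were both closest to myo-1, another pharyngeal myosin gene (0.982 for tnt-4 and 0.985 for tnc-2), and tnt-4 had tnc-2 itself in the third place (0.975). tnt-3 had the weakest neighbours, with ZK822.5 first at 0.892.

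The difference between body wall muscle-like and pharyngeal muscle-like sums was tested across 9390 genes with the library as a term. Of these, 2908 genes (31%) were called by edgeR's quasi-likelihood test at an adjusted p of 0.05. Of the 10 members, 9 were called, 5 higher and 4 lower in body wall muscle-like nuclei. The members' median log2 difference was 0.34 and that of all genes 0.08. The higher members were unc-27 (log2 difference 1.31 ± 0.12 SE, adjusted p = 7.5e-18), mup-2 (1.11 ± 0.16, 1.0e-08), tni-1 (1.05 ± 0.15, 3.0e-09), tnt-2 (1.04 ± 0.12, 1.3e-12) and pat-10 (0.77 ± 0.12, 9.7e-08). The lower members were tnt-4 (−5.63 ± 0.14, 7.5e-58), tnc-2 (−5.02 ± 0.13, 1.3e-57), tni-4 (−4.11 ± 0.17, 3.9e-41) and tni-3 (−0.95 ± 0.14, 5.7e-09). tnt-3 was not called (−0.08 ± 0.12, edgeR adjusted p = 0.653). Over all genes, 48.9% of calls were higher in body wall muscle-like nuclei with TMM scaling and 36.5% with DESeq2 size factors, and all 9 member calls held under both.

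Gonadal sheath-like against body wall muscle-like sums gave 5736 called genes of 9390 (61.1%). Here too 9 of the 10 members were called, 1 higher and 8 lower in sheath-like nuclei. tni-4 was the higher one (log2 difference 2.62 ± 0.18 SE, edgeR adjusted p = 4.5e-25), with gonadal sheath-like above body wall muscle-like nuclei in 30 of 30 libraries. The largest differences downward were those of tnt-2 (−3.57 ± 0.14, adjusted p = 8.7e-43), pat-10 (−2.84 ± 0.13, 3.3e-36), unc-27 (−2.77 ± 0.13, 1.7e-37) and tnt-3 (−2.67 ± 0.18, 1.3e-25). mup-2 was lower by less (−1.33 ± 0.18, 1.9e-10). tnt-4 (−0.87 ± 0.33, adjusted p = 0.018), tnc-2 (−0.82 ± 0.26, 0.0046) and tni-3 (−0.54 ± 0.17, 0.0032) were also called. tni-1 was not called (−0.06 ± 0.16, 0.786), and its sign turned with DESeq2 size factors (0.18). The median of all genes was −0.21 in this comparison and −0.03 with size factors, and calls higher in sheath-like nuclei made up 38.7% with TMM and 51.1% with size factors. Relative to the median of all genes under TMM, tnt-2 stood at −3.36, unc-27 at −2.56, mup-2 at −1.12 and tni-4 at 2.83. With size factors, the calls of tni-3 (adjusted p = 0.082) and tnt-4 (0.074) were lost, and the tnc-2 call was lost with clusters built with the troponin genes (−0.57, 0.074). tnt-4 was also not called with DESeq2's Wald test (adjusted p = 0.094) or with doublets kept (0.104). The members' median was −1.10.

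Ethanol was compared with water within generations in 1 fit over 26 whole libraries, which asks whether the levels differ with dose and whether that difference depends on generation. No member was called in any of the 8 comparisons, and no gene was called among the 14505 tested (0%) by edgeR's quasi-likelihood test. This fit had no term for the replicate number. With such a term a few genes were called for 0.5% ethanol in F3, none of them a member, as given in the last section. An unadjusted p under 0.05 was reached by 140 genes at 0.05% ethanol in F3 and by fewer in F1, and by 657 genes at 0.5% ethanol in F3 and 274 in F1. Each of these counts was below a share of 0.05 of the 14505 genes, which that threshold gives on average when no gene differs and libraries vary independently. Same-numbered libraries were alike in several groups, as given under the processing, so these counts do not show that no gene differs. In whole worms, fewer nuclei of a type and less RNA per nucleus cannot be told apart.

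With 0.05% ethanol the median log2 change over the 10 members was −0.04 in F1 and −0.01 in F3, against −0.01 in F1 and 0.01 in F3 for all genes. The member with the smallest p was tnc-2 in F1 (−0.31 ± 0.37 SE, edgeR adjusted p = 1, −0.57 within batch 2 and −0.10 within batch 5). Leaving out 1 library moved it between −0.62 (without 0.05% ethanol replicate 1 of batch 5) and −0.0285 (without water replicate 2 of batch 2). In F3 it was tnt-3 (−0.19 ± 0.21, edgeR adjusted p = 1.00, −0.17 within batch 2 and −0.22 within batch 4), and it moved between −0.37 without replicate 2 and −0.0705 without replicate 1 of 0.05% ethanol in batch 2. Within batch 4, tnc-2 had 73.5 to 113 CPM in 0.05% ethanol F3 libraries and 137 to 142 CPM in water F3 libraries, without overlap. It was the only member without overlap there, while 4.65% of all genes were lower without overlap, and its groups overlapped within batch 2. In F1, tni-3 had 139 to 144 CPM in 0.05% ethanol libraries and 157 CPM in both water libraries of batch 2, as the only member without overlap against 4% of all genes lower in that way, and its groups overlapped in batch 5.

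With 0.5% ethanol the values of all 10 members were below 0 in F1 and in F3, none of them called, with medians of −0.21 in F1 and −0.31 in F3, against −0.02 in F1 and −0.00 in F3 for all genes. Over the alternatives the F1 median ran between −0.31 (without water replicate 2 of batch 5) and −0.0434 (without 0.5% ethanol replicate 2, when 4 members lay above 0), and the F3 median between −0.39 and −0.26 with up to 1 member above 0. The F1 member with the smallest p was tnt-3 (−0.26 ± 0.27, edgeR adjusted p = 1; −0.39 without 0.5% ethanol replicate 1 and −0.0857 without water replicate 1 of batch 5), and the libraries with 0.5% ethanol and water overlapped for all 10 members in batch 5, where 1.44% of all genes were lower without overlap. In F1 the family's summed level was 3042 to 5401 CPM with 0.5% ethanol and 3031 to 7040 CPM with water in that batch.

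In F3 the member with the smallest p was tni-4, the pharyngeal troponin I gene (−0.69 ± 0.30 SE, edgeR adjusted p = 0.957, 1 of 657 genes with an unadjusted p under 0.05). tni-4 had 95.1, 122.4 and 101 CPM in the 0.5% ethanol F3 libraries, against 177, 183 and 174 CPM in the water F3 libraries of the same batch. tnc-2 had 66.1, 87.7 and 83.2 CPM with 0.5% ethanol, against 137, 142 and 140 CPM with water (−0.73 ± 0.43, edgeR adjusted p = 0.957). The 2 groups did not overlap for either gene. tnt-4 had 39.1, 62.0 and 54.8 CPM with 0.5% ethanol, against 86.3, 96.5 and 85.5 CPM with water (−0.74 ± 0.40, edgeR adjusted p = 0.957).

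Body wall members lay closer together. unc-27 had 1802, 1951 and 1605 CPM with 0.5% ethanol F3, against 2108, 2065 and 2260 CPM with water F3. tnt-2 had 1293, 1294 and 1098 CPM with 0.5% ethanol and 1510, 1360 and 1510 CPM with water. Both again showed no overlap, as did tni-1 and tnt-3. pat-10 had 3541, 4104 and 3007 CPM with 0.5% ethanol and 3912, 3722 and 4397 CPM with water, and the groups overlapped for pat-10, mup-2 and tni-3. In all, 7 of the 10 members were lower in all 3 0.5% ethanol F3 libraries than in all 3 water F3 libraries, while 1277 of the 14505 genes tested (8.8%) were. An exact permutation test of 3 against 3 libraries cannot go below p = 0.10. The family's summed level was 7114 to 8932 CPM with 0.5% ethanol and 8964 to 10056 CPM with water.

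Shares of the muscle classes were taken in the same libraries. Pharyngeal muscle-like nuclei made up 2.27 to 5.76% of nuclei in the 0.5% ethanol F3 libraries and 5.26 to 8.63% in the water F3 libraries, and body wall muscle-like nuclei made up 8.64 to 13.2% with 0.5% ethanol and 13.7 to 14.2% with water. Gonadal sheath-like nuclei made up 0.717 to 1.05% with 0.5% ethanol and 1.11 to 1.65% with water. The pharyngeal ranges overlapped, and the body wall and sheath ranges did not. The part of these shares in the values of whole libraries was not tested. Sums within classes do not fully separate the members from the shares of classes, since body wall muscle RNA was counted in every class. Clusters were also rebuilt, and a class may hold nuclei of other types.

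**Figure D4:**
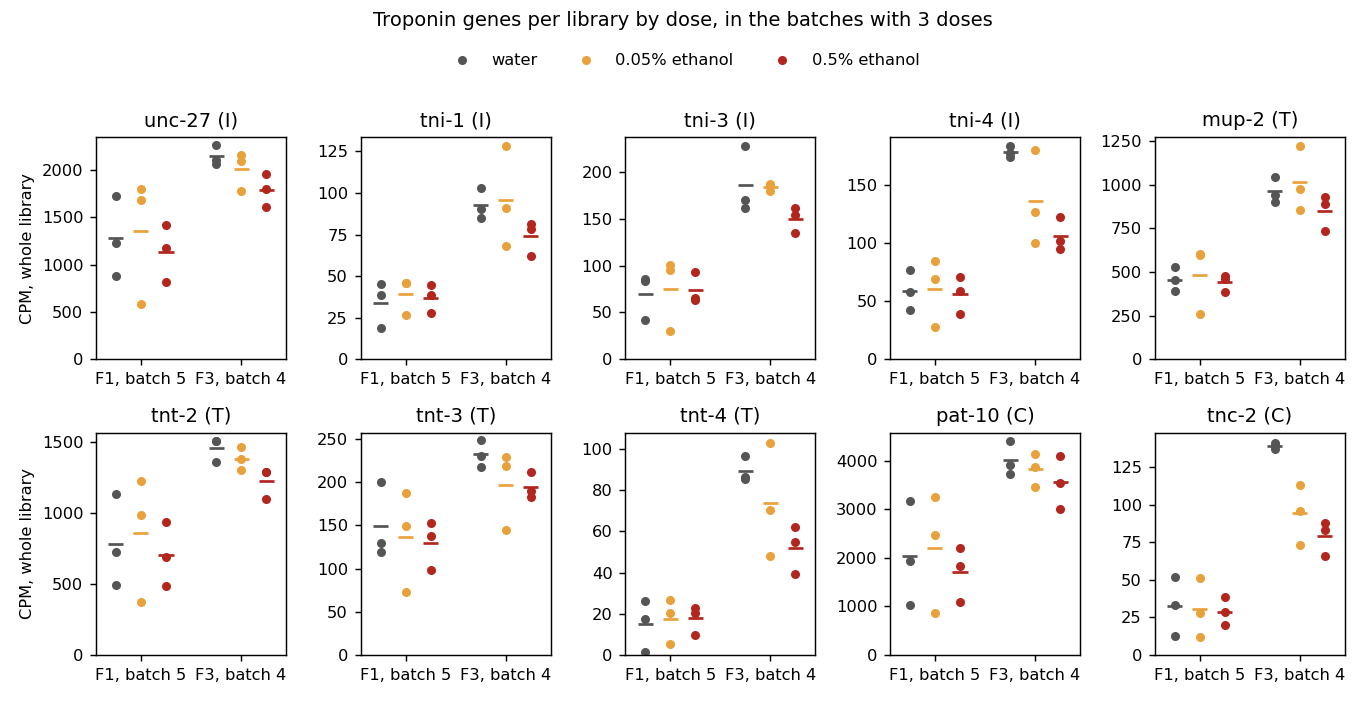
CPM of each troponin gene per whole library (points) with the mean of 3 libraries (bars) for water, 0.05% and 0.5% ethanol, in batch 5 (F1) and batch 4 (F3); the vertical axes start at 0 and differ between genes. In F3, the 0.5% ethanol points of tnc-2 (66.1 to 87.7 CPM) lie below the water points (137 to 142 CPM), while in F1 the groups overlap for all 10 genes.

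Within body wall muscle-like nuclei, no member and none of the 9603 genes tested (0%) was called in the 4 ethanol comparisons. The members' medians with 0.05% ethanol were 0.12 in F1 and −0.09 in F3, and with 0.5% ethanol −0.07 in F1 and 0.04 in F3. An unadjusted p under 0.05 was reached by 191, 330, 208 and 283 genes in this order. Each of these counts was below a share of 0.05 of the genes tested. In F3 with 0.5% ethanol, unc-27 stood at 0.04 ± 0.17 SE and pat-10 at 0.15 ± 0.22 in this class. tni-4 had the smallest p in both generations at 0.5% ethanol, with −0.88 ± 0.31 in F1 and −0.76 ± 0.24 in F3 (edgeR adjusted p = 1 in both). Its levels were 35.9 to 40.7 CPM with 0.5% ethanol and 46.2 to 78.5 CPM with water in F3, and 17.2 to 33.5 CPM with 0.5% ethanol and 32.9 to 41.8 CPM with water in F1. These levels stand beside 806 CPM in pharyngeal muscle-like and 25.8 CPM in germline-like nuclei. For 0.05% ethanol the smallest p was that of tnt-4, with −0.70 ± 0.40 in F1 and −0.71 ± 0.31 in F3 (edgeR adjusted p = 1.00 in both). The F1 value did not hold with clusters built with the troponin genes, as given in the last section.

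Within pharyngeal muscle-like nuclei, 5887 genes were tested and no member was called. The 0.5% ethanol comparison in F1 called 1 gene (0.017%), not a member, and the other 3 comparisons called 0. Unadjusted p under 0.05 was reached by 288, 187, 312 and 250 genes at 0.05% in F1, at 0.05% in F3, at 0.5% in F1 and at 0.5% in F3. Only the count at 0.5% in F1 was above a share of 0.05 of the genes tested. In F3 with 0.5% ethanol, tnt-4 (0.47 ± 0.28 SE), tnc-2 (0.46 ± 0.30) and tni-4 (0.28 ± 0.25) had values above 0 in this class, where whole libraries had values below 0. The groups overlapped in CPM for each of these genes. With 0.5% ethanol, tnt-4 had 630 to 1263 CPM (median 706), against 514 to 796 (743) with water. tni-4 had 788 to 1498 CPM (median 893), against 778 to 1146 (974). tnc-2 had 748 to 1418 CPM (median 869), against 717 to 952 (800). The ethanol median was thus below the water median for tnt-4 and tni-4. The smallest p in F3 with 0.5% ethanol was that of unc-27 (−0.45 ± 0.26, edgeR adjusted p = 0.999). In F1 with 0.5% ethanol it was tni-1 (−1.74 ± 0.66, edgeR adjusted p = 0.922). For 0.05% ethanol it was tnt-3 in F1 (0.68 ± 0.23, edgeR adjusted p = 0.945) and tnt-4 in F3 (0.51 ± 0.24, edgeR adjusted p = 1.00).

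**Figure D5:**
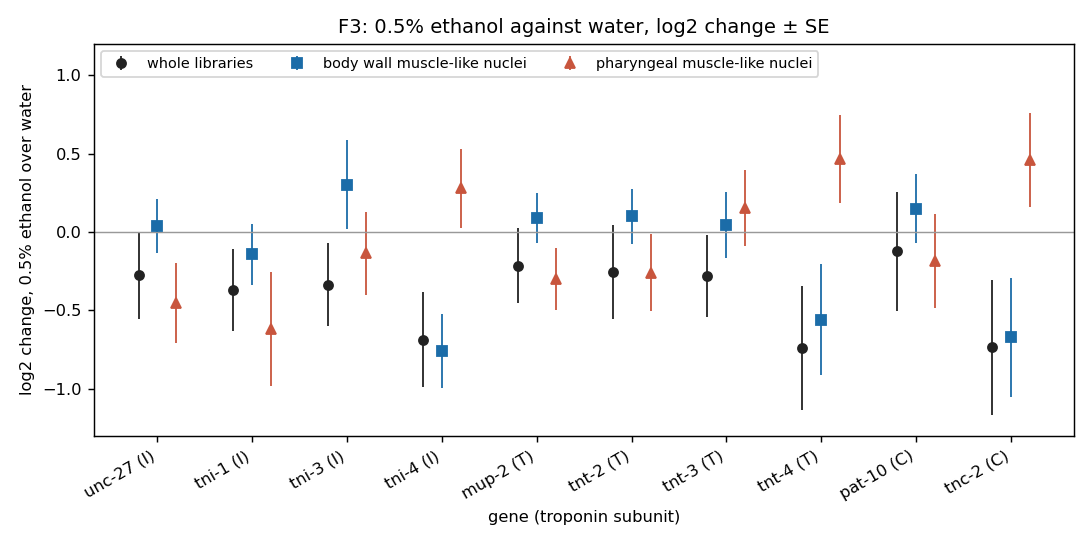
Log2 change of each troponin gene for 0.5% ethanol over water in F3 (points) with its standard error (lines), in whole libraries, body wall muscle-like sums and pharyngeal muscle-like sums. None was called; tni-4, tnt-4 and tnc-2 lie below 0 in whole libraries (−0.69, −0.74 and −0.73) and above 0 in pharyngeal muscle-like nuclei (0.28, 0.47 and 0.46). In the latter class the ethanol and water libraries of these genes overlapped in CPM.

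Setting the doses against each other, no member was called for 0.5% against 0.05% ethanol in F1 (smallest p for tnt-2, −0.30 ± 0.30, edgeR adjusted p = 1, between −0.55 and −0.0438 without replicate 1 of 0.5% or of 0.05% ethanol) or in F3 (smallest p for tni-4, −0.50 ± 0.31, edgeR adjusted p = 0.956). The effect of ethanol did not pass the test for a difference between F3 and F1 in any member. The smallest p for 0.5% ethanol was that of tnt-4 (−0.70 ± 0.59, edgeR adjusted p = 1), and for 0.05% that of mup-2 (0.10 ± 0.27, edgeR adjusted p = 1.00). For 0.5% ethanol the generation coincides with the batch, and they cannot be told apart.

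Batch 2 is the only one with both generations, and F3 was compared there with F1 over 4 libraries each. Of 13786 genes, 55 (0.399%) were called, 7 higher and 48 lower in F3, and none was a member, while 1937 genes had an unadjusted p under 0.05. All 10 members had values above 0, with a median of 0.41 against −0.01 for all genes. Over the alternatives the median ran between 0.12 (without replicate 2 of 0.05% ethanol F3, when 7 members lay above 0) and 0.60 (without replicate 2 of water F1). tni-3 had 214 to 259 CPM in F3 and 139 to 157 CPM in F1, without overlap (0.70 ± 0.15 SE, edgeR adjusted p = 0.0722). It was the only member higher in every F3 than in every F1 library, as were 391 of all genes (2.84%). tni-3 passed the threshold with DESeq2's Wald test, without the filter on low counts and with the replicate block. mup-2 averaged 1299 ± 190 CPM in F3 and 957 ± 165 CPM in F1 (SD, n = 4 each; log2 difference 0.50 ± 0.19 SE, edgeR adjusted p = 0.285). unc-27 averaged 2292 ± 290 CPM in F3 and 2306 ± 75.5 CPM in F1, and tnt-2 averaged 1398 ± 288 CPM in F3 and 1426 ± 51.5 CPM in F1. These unscaled means were lower in F3, while the fitted log2 differences after TMM scaling were 0.05 ± 0.16 for unc-27 and 0.03 ± 0.19 for tnt-2. Pharyngeal muscle-like nuclei made up 3.53 to 6.85% of nuclei in F3 and 2.79 to 5.15% in F1, and body wall muscle-like nuclei 8.09 to 11.1% and 9.67 to 13.9%. The part of these shares in the difference was not tested.

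Thin filament and calcium-handling genes that work with troponin were followed as a list of 16, with actins (act-1 to act-4), tropomyosin (lev-11), tropomodulins, cofilin, the ryanodine receptor gene unc-68 and the calcium pump gene sca-1 among them. All 16 were tested, and 0 were called in each of the 8 whole-library ethanol comparisons and between generations in batch 2. Their median log2 change with 0.5% ethanol was −0.17 in F1 and −0.23 in F3, and it was 0.15 for F3 against F1 in batch 2. An unadjusted p under 0.05 was reached by 0, 1 and 3 of the 16 in these comparisons.

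In P0, the 1 sorted library of batch 1 was set beside the unsorted library of that batch, with no replicate check. unc-27 had 1876 CPM in sorted and 1370 CPM in unsorted nuclei, and pat-10 had 2904 and 2200 CPM. tnt-3 had 142 CPM in sorted nuclei (970 UMIs) and 43.1 CPM in unsorted nuclei (236 UMIs), and tnt-4 had 26.2 and 6.94 CPM. tni-4 had 70.9 CPM in sorted and 73.5 CPM in unsorted nuclei, with overlapping counting intervals (64.7 to 77.5 and 66.5 to 81.1).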

How the data were processed

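UMI counts per gene and nucleus were deposited by the authors as 1 matrix per library, made with Cell Ranger on genome build ce10, per the submitters' processing notes; the file headers name software version 3.0.2. The counts were used as deposited, and 0 value columns were left out. The members and lists were chosen with earlier results of these data known. Nuclei were clustered without the members (2000 variable genes, 30 principal components, 15 neighbours, resolution 1) after doublet scoring at 0.8% per 1000 nuclei, and clusters were named from marker lists by a rule set after the data were seen. Class sums needed 20 nuclei in a library. UMIs summed per library, or per library and class, were tested with edgeR's quasi-likelihood test, two-sided (edgeR 4.0.16, R 4.3.3, TMM factors 0.862 to 1.26, filterByExpr). Benjamini-Hochberg adjustment was over all genes, and the ethanol fit had a term for each batch and generation. The test was also run on simulated counts without batch differences. That run does not show how well changes as small as those of the members are found. In a comparison, every called member is given, or else the one with the smallest p. Exon lengths come from the WBcel235 annotation, whose coordinates are not printed since the build differs. Replicate numbers were taken to pair libraries where every same-numbered pair's deviations correlated above 0.1 over 6836 genes: this held for 0.05% ethanol and water in F1 (0.526 to 0.774), 0.5% ethanol and water in F1 (0.563 to 0.692), 0.5% and 0.05% ethanol in F1 (0.605 to 0.682) and 0.5% ethanol and water in F3 (0.203 to 0.662). Alternatives were DESeq2 1.42.0 (Wald test, size factors), no filter, the replicate block, fits by batch or comparison, leaving out libraries, clusters built with the members, doublets kept and, chosen after seeing the data, leaving out shared barcodes, and the shallow libraries for class sums. No sequence is printed, since none was used here.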

Additional observations from a re-analysis of the deposited data

Results flagged for a closer look

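Of 50 pairs of a member and a group of 4 or 5 libraries, 4 held 1 library set apart from the rest by the gap between it and its nearest neighbour. Chance gives about 1 in 20 where the libraries of a group are alike. These groups mixed batches and the members shared libraries, so that rate is only a rough guide here. pat-10 had 7934 CPM in replicate 2 of 0.05% ethanol F3 in batch 2, while the other 4 libraries of the group had 3450 to 4139 CPM. tnt-4 had 149 CPM in replicate 1 of water F3 in batch 2, while the other 4 had 79.6 to 96.5 CPM. tni-4 had 108 CPM in replicate 2 of water F3 in batch 2, while the other 4 had 174 to 194 CPM. mup-2 had 458 CPM in replicate 1 of untreated P0 unsorted nuclei in batch 3, while the other 3 had 332 to 348 CPM. 3 of the 4 were F3 libraries of batch 2.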

How the results depend on the processing

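The number of members called was followed for each pair of a comparison and an alternative. With 1 library left out it stayed at 0 in all 420 pairs, in comparisons that had called no member to begin with. The comparisons between classes, which had called members, were not refitted without 1 library. Under the other alternatives the number stayed within 1.5 times in 128 pairs and moved in 3. The 3 were all in F3 against F1 within batch 2: 1 member was called with DESeq2's Wald test (tni-3, adjusted p = 0.00103, 500 genes called), 3 without the filter on low counts (tni-3, tnt-4 and tnc-2, 1093 genes) and 1 with the replicate block (tni-3, adjusted p = 0.0294, 554 genes), although the numbers did not pair these libraries (r = 0.0268 for water). Without shared barcodes 26 genes were called there. Leaving out 1 library gave 0 to 163 genes and no member: 0 without replicate 1 of any of the 4 groups or replicate 2 of 0.05% ethanol F3, 1 without replicate 2 of water F3, 119 without replicate 2 of water F1 and 163 without replicate 2 of 0.05% ethanol F1. With the replicate block, 3 genes were called for 0.5% ethanol F3, and 11 with only that comparison's libraries, none a member; the block changed no other call of a member. Some uncalled values turned sign. Near 0 were tni-1 in sheath against body wall with size factors (0.18) and the F3 minus F1 effect of 0.05% ethanol on mup-2. The latter lay between −0.0561 and 0.21 over libraries left out. The value of tnt-4 for 0.05% ethanol F1 in body wall muscle-like sums was not near 0 as reported. It went to 0.00121 with clusters built with the troponin genes, so it depends on the clustering. The number of members above 0 ran between 0 and 4 for 0.5% ethanol F1 and between 7 and 10 for F3 against F1 in batch 2. Other uncalled values that moved by over 1.5 times without 1 library were tnt-4 for 0.05% ethanol F1 (−1.07 to −0.20) and tni-4 for 0.5% ethanol F1 (−1.05 to −0.56) in body wall muscle-like sums, unc-27 for 0.5% ethanol F3 in pharyngeal muscle-like sums (−0.73 to −0.25) and the F3 minus F1 effect of 0.5% ethanol on tnt-4 (−0.94 to −0.44). In sheath against body wall, tnc-2 was not called with clusters built with the troponin genes (−0.57, adjusted p = 0.074) and tnt-4 was not called with DESeq2's Wald test (−0.68) or with doublets kept (−0.55). The causes were not tested. Depth limits tnt-4 and tnc-2 in body wall muscle-like and gonadal sheath-like nuclei most, with means under 20 CPM.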
